A study of Mus musculus with 3 samples.

Results

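The shores of CpG clusters are the stretches where DNA passes from CpG-dense, mostly unmethylated sequence into the methylated genome around it. Any run of 20 or more CpGs whose neighbours lay no farther than 50 bp apart was taken as a CpG cluster, built from the CpG positions listed in any of the 3 libraries on the 19 autosomes. A shore was the sequence up to 2 kb outside a cluster edge that lay in no other cluster, each position being given to the nearest edge. By this definition no CpG lies within 50 bp of an edge, so the first 100 bp of a shore hold fewer CpGs than the next. There were 27183 clusters with 54366 shores, and the shores held 2269959 of the 38637258 autosomal CpG cytosines listed (5.88%). Clusters within 1 kb of the start of a protein-coding transcript (GENCODE M1, build mm9) are called start clusters here and numbered 14461 (53.2%). The remaining 12722 are called other clusters. Start clusters had a median of 54 CpGs over 599 bp, and other clusters a median of 26 CpGs over 404 bp. A full 2 kb was free of other clusters in 21678 of the 28922 start shores and in 20661 of the 25444 other shores.

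The DNA was genomic DNA of E14, a mouse embryonic stem cell line grown on gelatin-coated plates, with no genotype or treatment to compare. Per the methods of the study, the medium held serum, LIF and the inhibitors PD0325901 and CHIR99021. TAPSβ reads 5-methylcytosine (5mC), because glucose put on 5-hydroxymethylcytosine (5hmC) protects it from the TET oxidation and borane reduction that turn 5mC into a base read as T. CAPS reads 5hmC after chemical oxidation with potassium ruthenate and reduction by another borane, and PS reads 5-formylcytosine (5fC) and 5-carboxylcytosine (5caC), which borane reduces directly. Each method had 1 library, so no value below has a replicate error and no difference between regions was tested. The reads per listed cytosine averaged 12.8 in TAPSβ, 9.43 in CAPS and 9.56 in PS. Levels are modified reads as a percent of all reads pooled over the cytosines named, not corrected for incomplete or false conversion. Intervals are exact binomial 95% intervals. They cover counting error only and treat each read at each cytosine as independent. As a further description, the number of autosomes that showed a direction is given out of 19.

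5mC is written by DNA methyltransferases over most of the genome, but CpG-dense promoters of housekeeping and developmental genes are kept largely free of it. The TET dioxygenases oxidise 5mC to 5hmC and then to 5fC and 5caC, which thymine DNA glycosylase can excise, so 5hmC is the earliest intermediate of active demethylation. In embryonic stem cells TET1 and TET2 are abundant, and the flanks of CpG islands are known as places where methylation varies between cell states.

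To show what such sequence looks like, 4 windows of 200 bases are printed 5′ to 3′ on the plus strand of mm9 with complete CpGs in capitals. They come from the start shores and the other shores with the highest CAPS level of each kind, the shores having been chosen by that level. The window chr4:108057572-108057771 begins 1218 bp outside the cluster at the start of Fam159a, and chr2:30657355-30657554 begins at the edge of the cluster at the start of 1700001O22Rik. The window chr17:29237790-29237989 ends at the edge of a cluster of 23 CpGs whose shore overlaps Cdkn1a, the gene of a cyclin-dependent kinase inhibitor, and chr2:25024754-25024953 lies 755 bp outside a cluster with no annotated gene in its shore. None of the 4 windows overlaps an annotated exon or untranslated region. The second lies in an intron of non-coding transcripts of 1700001O22Rik, and the other 3 overlap no annotated transcript.
Fam159a shore: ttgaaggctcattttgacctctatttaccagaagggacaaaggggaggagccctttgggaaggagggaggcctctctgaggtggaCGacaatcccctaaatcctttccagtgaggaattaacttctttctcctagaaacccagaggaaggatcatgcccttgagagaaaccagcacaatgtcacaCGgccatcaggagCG
1700001O22Rik shore: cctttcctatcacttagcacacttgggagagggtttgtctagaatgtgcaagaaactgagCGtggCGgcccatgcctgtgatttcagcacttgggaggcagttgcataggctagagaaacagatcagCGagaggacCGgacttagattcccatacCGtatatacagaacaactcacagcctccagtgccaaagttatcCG
Cdkn1a shore: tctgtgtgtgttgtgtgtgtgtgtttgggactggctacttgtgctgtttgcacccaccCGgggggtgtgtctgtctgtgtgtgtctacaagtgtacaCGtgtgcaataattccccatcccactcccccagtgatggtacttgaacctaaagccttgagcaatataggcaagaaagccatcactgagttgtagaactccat
Shore on chromosome 2 away from genes: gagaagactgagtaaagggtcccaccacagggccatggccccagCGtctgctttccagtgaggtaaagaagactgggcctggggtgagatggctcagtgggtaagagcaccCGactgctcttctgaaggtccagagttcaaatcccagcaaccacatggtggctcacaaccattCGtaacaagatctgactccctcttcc

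In the Fam159a window all 3 CpGs held cytosines with modified CAPS reads, 15 of 73 reads in all (20.5%, 11.98 to 31.6%), beside a TAPSβ level of 22.3% and 0 of 71 PS reads. The 1700001O22Rik window held 6 CpGs at 12.6% in CAPS (7.23 to 19.9%) and 15.7% in TAPSβ. The Cdkn1a window held 2 CpGs at 12.1% in CAPS (4.99 to 23.3%) and 65.2% in TAPSβ. The last window ends on the C of a CpG whose G falls outside it, and stood at 11.6% in CAPS (5.14 to 21.6%) and 54.7% in TAPSβ. The windows hold between 2 and 6 complete CpGs in 200 bases, and their TAPSβ levels range from 15.7% to 65.2%.

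Across the edge of start clusters, 5mC and 5hmC rose together but not in the same way (plot of pooled levels across cluster edges). The interior of start clusters had a TAPSβ level of 0.927% and a CAPS level of 0.859%, and at 400 bp or more inside the edge these were 0.358% and 0.625%. Both interior CAPS levels lie near the false-positive rate used for the calls further below (0.0072 of reads), which was not subtracted. They are therefore no measure of 5hmC inside these clusters. The CAPS level then rose to 1.73%, 2.83% and 3.71% in the bins that begin 0, 200 and 400 bp outside the edge. It was highest in the bin 700 to 800 bp from the edge, at 4.28% (4.23 to 4.33%), and its interval overlapped those of the bins from 800 to 1000 bp. Beyond that it fell slowly to 3.91% (3.85 to 3.96%) in the outermost 100 bp, so that the peak was 1.10 times the outermost level (1.07 to 1.12). Mean TAPSβ depth fell from 16.3 reads per cytosine in the first bin to 13.8 in the outermost. The part of this fall in the TAPSβ levels was not tested. The TAPSβ level did not peak but went on rising, through 10.2% at 200 to 300 bp and 35.0% in the CAPS peak bin to 54.7% in the outermost bin. Its midpoint between the interior and the outermost bin was reached 593 bp from the edge, and 63.3% of the rise was complete where CAPS peaked. CAPS therefore peaked outside the TAPSβ midpoint in the pooled data, and did so on 18 of 19 autosomes. The curve is flat near its top, and the highest bin of single autosomes was centred anywhere from 550 to 1650 bp. On most autosomes the bins with intervals overlapping that of the peak began inside the midpoint. The position of the peak is therefore only loosely set, and its order with the midpoint is not resolved on most single autosomes.

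Other clusters, when pooled, showed the same order closer to the edge, though not in each class of interior methylation given below. Their interiors were not free of modification, at 14.1% in TAPSβ and 2.51% in CAPS. CAPS was highest 400 to 500 bp from the edge, at 4.19% (4.13 to 4.25%), with an interval that overlapped those of the bins from 300 to 600 bp, and TAPSβ there stood at 43.6%. With the mean of shore levels in place of pooled reads the peak moved to 250 bp, inside the TAPSβ midpoint of 274 bp. The TAPSβ midpoint lay 289 bp from the edge and 64.3% of the rise was complete at the CAPS peak, a share close to that of start shores. From the peak, CAPS fell to 3.42% (3.35 to 3.48%) in the outermost bin, a ratio of 1.23 (1.20 to 1.25), while TAPSβ reached 59.9%. The CAPS peak lay outside the TAPSβ midpoint on 18 of 19 autosomes, but on most of them bins with overlapping intervals again began inside the midpoint. The CAPS level at 500 to 1000 bp exceeded that at 1500 to 2000 bp on 19 of 19 autosomes for other clusters and on 18 of 19 for start clusters, with ratios of 1.02 to 1.24 and 0.980 to 1.17.

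**Figure D1:**
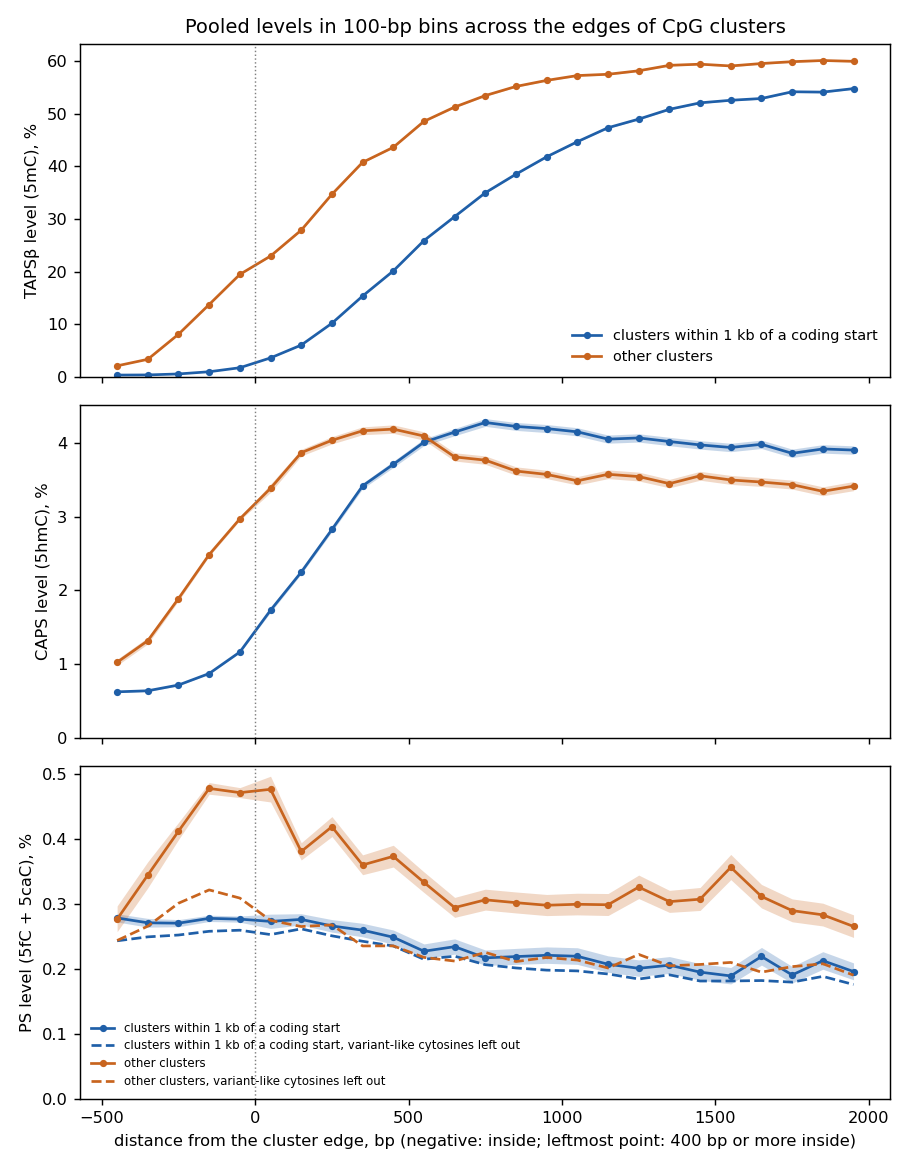
Pooled TAPSβ, CAPS and PS levels (percent of reads) in 100-bp bins against the distance from the cluster edge (bp, negative inside), for start clusters (blue) and other clusters (orange), with bands of exact binomial 95% intervals; dashed PS lines leave out variant-like cytosines. TAPSβ climbs to 54.7% and 59.9% in the outermost bins, CAPS tops out at 4.28% and 4.19% and then declines, and PS is lower in the outermost bins than beside the edge.

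Over the whole shore, CAPS was 3.54% for start clusters and 3.71% for other clusters. Both were above the level of cytosines far from clusters, although TAPSβ was below it. Cytosines more than 4 kb from any cluster had a TAPSβ level of 63.8% and a CAPS level of 3.21%, against 36.8% and 3.61% over all shores. In the stretch from 2 to 4 kb outside start clusters CAPS was 3.97%, higher than over their shores, and TAPSβ 56.1%, whereas outside other clusters CAPS was 3.42% and TAPSβ 60.02%. The share of CAPS in the sum of the CAPS and TAPSβ levels fell outward in start shores, from 32.4% in the first bin to 10.9% in the peak bin and 6.66% in the outermost one. In other shores it fell from 12.9% to 5.39%. These shares use uncorrected levels, and false CAPS conversion weighs most in them where both levels are low. The first bin of start shores had a CAPS level of only 1.73%, beside the false-positive rate of 0.0072 used for the calls. The part of false conversion in the fall was not tested. CpGs thinned out with distance, from 2.90 per 100 bp at 100 to 200 bp outside start clusters to 1.02 in the outermost bin, and GC content went from 50.1% to 44.7%.

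At the level of single cytosines, 5hmC was called with a one-sided exact binomial test of each cytosine with at least 5 CAPS reads against a false-positive rate of 0.0072, with Benjamini-Hochberg adjustment over all cytosines tested and a threshold of 0.05. Of 36060655 cytosines tested on all chromosomes, 591604 were called, a background of 1.64%. In shores 42167 of 1998213 tested cytosines were called, or 2.11%, which is 1.29 times the background. The counts depend on the settings, the share in shores being 6.83% against a rate of 0.0038 and 6.86% when adjusted over cytosines with a modified read, each 1.25 times the share of all cytosines. The share was 0.122% in the interior of start clusters, 0.555% in the first 100 bp outside, 2.71% in the CAPS peak bin and 2.21% in the outermost bin. Around other clusters it was 1.13% inside, 2.71% at 300 to 400 bp and 1.90% in the outermost bin. Pooled by kind, calls were thus below the background inside clusters and above it in the outer parts of their shores. Inside clusters with an interior TAPSβ level of 10 to 50% they were above it, at 2.69% for other clusters and 2.27% for start clusters. At least 1 called cytosine was present in 42.95% of start shores and 35.0% of other shores. Start shores held more tested cytosines each, which raises this count. Per tested cytosine the order was the reverse, with 2.02% of 1174479 called in start shores and 2.24% of 823734 in other shores. Mean CAPS depth per cytosine was 9.94 in start shores and 8.46 in other shores. Inside the clusters it was 7.67 and 6.68, and the part of depth in the called shares was not tested.

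Single shores had a wide range of levels, counting error included. Among the 22669 start shores with at least 200 CAPS reads, the median CAPS level was 3.40%. The quartiles were 2.32% and 4.69%, and 5% of these shores lay above 6.90%. The 16046 other shores with as many reads had their median at 3.50% and their quartiles at 2.02% and 5.12%.

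Clusters were next divided by the TAPSβ level of their own interior, which the definition of a shore does not use. Mean TAPSβ depth inside other clusters was 14.1 at interior levels under 10%, 8.40 at 10 to 50% and 5.04 at 50% or more. CAPS depth there was 7.20, 5.46 and 8.40. Inside start clusters TAPSβ depth was 15.3, 12.6 and 6.86, and CAPS depth 7.68, 7.28 and 8.23. The part of TAPSβ depth in these classes and in the levels and midpoints below was not tested. Other clusters with an unmethylated interior (under 10%, 4721 clusters) were nearer to start clusters in the positions, with the CAPS peak at 500 to 600 bp, a level of 4.82% (4.73 to 4.92%) and the TAPSβ midpoint at 454 bp. Partly methylated interiors (10 to 50%) went with the highest shore levels of CAPS and with a peak beside the edge. It stood at 100 to 200 bp with 5.98% (5.87 to 6.09%) for 3633 other clusters and with 5.92% (5.67 to 6.17%) for 478 start clusters, and the inside of these clusters already held 4.98% and 4.61%. In this class the order turned, since the TAPSβ midpoints lay farther out than the CAPS peaks, at 205 bp and 264 bp, and 39.9% and 37.6% of the rise was complete at the peak. For the start clusters the bins from 0 to 300 bp had intervals overlapping that of the peak. This range holds the midpoint, so the order is not resolved there. The 3306 other clusters with interiors at 50% or more had almost no profile, with a highest bin of 2.85% (2.76 to 2.95%) against 2.66% inside, and TAPSβ at 71.2% inside and 69.9% in the outermost bin. With partly methylated interiors the peak levels of both kinds lay within each other's intervals. For unmethylated interiors the peak of other clusters (4.82%) was above that of start clusters (4.29%, 4.24 to 4.35%), and in other clusters it was alike inside genes (4.83%) and between them (4.81%).

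The flanks of start clusters differed with the direction of the gene. For the 13021 with coding starts on a single strand, TAPSβ rose sooner upstream of the gene than into it, with midpoints of 505 bp and 651 bp from the edge. Within 500 bp of the edge TAPSβ was 12.6% upstream and 9.27% downstream, and CAPS was 3.10% (3.08 to 3.13%) and 2.59% (2.57 to 2.61%). On none of the 19 autosomes was either level higher downstream in this stretch, the downstream to upstream ratio of CAPS having a range of 0.722 to 0.924. At 1000 to 2000 bp the order of CAPS turned, with 3.94% upstream and 4.08% downstream (4.06 to 4.11%) and a higher downstream level on 17 of 19 autosomes, while TAPSβ stayed lower downstream on all 19 at 49.4% against 53.0%. The peaks were 4.53% (4.45 to 4.61%) at 700 to 800 bp upstream and 4.20% (4.12 to 4.28%) at 900 to 1000 bp downstream, where 12 bins from 600 to 1900 bp had overlapping intervals and the position was not resolved. The 1440 clusters with coding starts on both strands had the widest unmethylated flanks, with a TAPSβ midpoint at 760 bp and a CAPS level of 2.92% over the shore.

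Because the pooled curves average over shores that gain methylation at different distances, single shores were also grouped by where TAPSβ rises. The rise was set at the first 200 bp with at least 15 TAPSβ reads and a level of 50% or more, in full 2-kb shores of clusters with an interior under 10% and at least 100 TAPSβ reads in the shore. Of 20810 such start shores 90.1% had a rise, at a median of 700 bp (quartiles 400 and 1000 bp), and of 5957 other shores 91.9%, at a median of 500 bp (quartiles 300 and 800 bp). The grouping uses TAPSβ reads, and CAPS is a separate library.

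The CAPS maximum moved outward with the rise of TAPSβ (CAPS profiles by position of the rise). In start shores with the rise within 500 bp it lay at 200 to 400 bp, at 5.45% (5.37 to 5.53%). With the rise at 500 to 1000 bp it lay at 600 to 800 bp, at 5.16% (5.09 to 5.23%). With the rise at 1000 to 1500 bp it lay at 1000 to 1200 bp, at 5.13% (5.02 to 5.24%), and with the rise beyond 1500 bp at 1400 to 1600 bp, at 5.86% (5.65 to 6.07%). These maxima, in 200-bp bins, were all above the peak of the pooled start shores, 4.28% in 100-bp bins and 4.21% in 200-bp bins. The pooled set is wider, as it also holds shores cut short by another cluster, with a methylated interior or without a rise. The first 200 bp outside the edge held 4.04% CAPS in the shores that rose within 500 bp and 1.24% in those that rose beyond 1500 bp. In other shores the maxima also lay farther out in later classes, at 200 to 400, 400 to 600, 800 to 1000 and 1400 to 1600 bp, and went from 6.22% (6.09 to 6.35%) in the earliest class to 6.16% (5.71 to 6.63%) in the latest. In the 2051 start shores with no rise within 2 kb, CAPS climbed to the outer end and reached 4.51% (4.38 to 4.65%) there with TAPSβ at 16.5%. The 482 other shores without a rise reached 4.21% (3.96 to 4.48%).

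**Figure D2:**
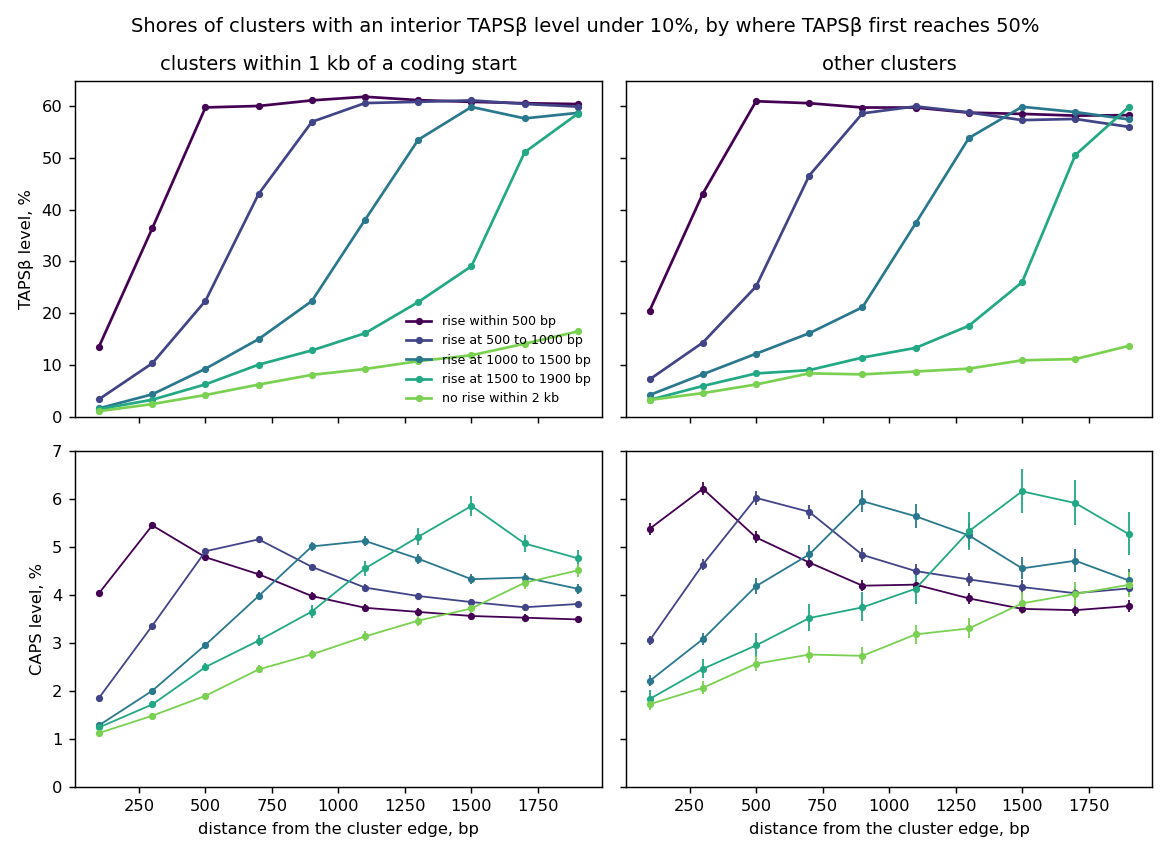
TAPSβ level (top) and CAPS level (bottom), in percent of reads, in 200-bp bins against the distance from the cluster edge, for start clusters (left) and other clusters (right) with an interior TAPSβ level under 10%; colours group the shores by where TAPSβ first reaches 50% and bars are exact binomial 95% intervals. The CAPS maximum shifts outward with the rise, from 200 to 400 bp in the earliest class to 1400 to 1600 bp in the shores that rise beyond 1500 bp.

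Aligning shores to their own rise made the maximum sharper. For rises at 500 to 1500 bp, 12099 start shores and 2699 other shores entered. In start shores CAPS went from 2.96% at 400 to 500 bp on the cluster side of the rise to 5.75% (5.66 to 5.83%) in the last 100 bp before it, where TAPSβ was 29.6%. It was 5.34% (5.24 to 5.45%) in the first 100 bp of the rise and dropped to 4.39% (4.32 to 4.46%) in the next, where TAPSβ was 64.2%. At 1000 to 1100 bp past the beginning of the rise it was 3.73%, in the 8216 shores that reach so far, all of which rose at 500 to 1000 bp. Other shores ran from 3.96% to 6.76% (6.57 to 6.95%) before the rise, at a TAPSβ level of 30.6%, and to 4.80% (4.66 to 4.94%) at 100 to 200 bp past its beginning. The called share of cytosines was 4.42% in start shores and 5.77% in other shores in the last 100 bp before the rise. Seen this way, CAPS was highest just on the cluster side of the rise, at intermediate TAPSβ levels. The rise is set at 50% TAPSβ, whereas the pooled midpoints stood at 27.8% in start shores and 37.0% in other shores. The order of peak and rise is therefore not directly comparable with that of peak and midpoint. Choosing the first stretch at 50% holds TAPSβ down just before the rise and raises it within the 200 bp chosen, so the size of the TAPSβ step is in part set by the choice. The part of the choice in the position and sharpness of the CAPS maximum was not tested.

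**Figure D3:**
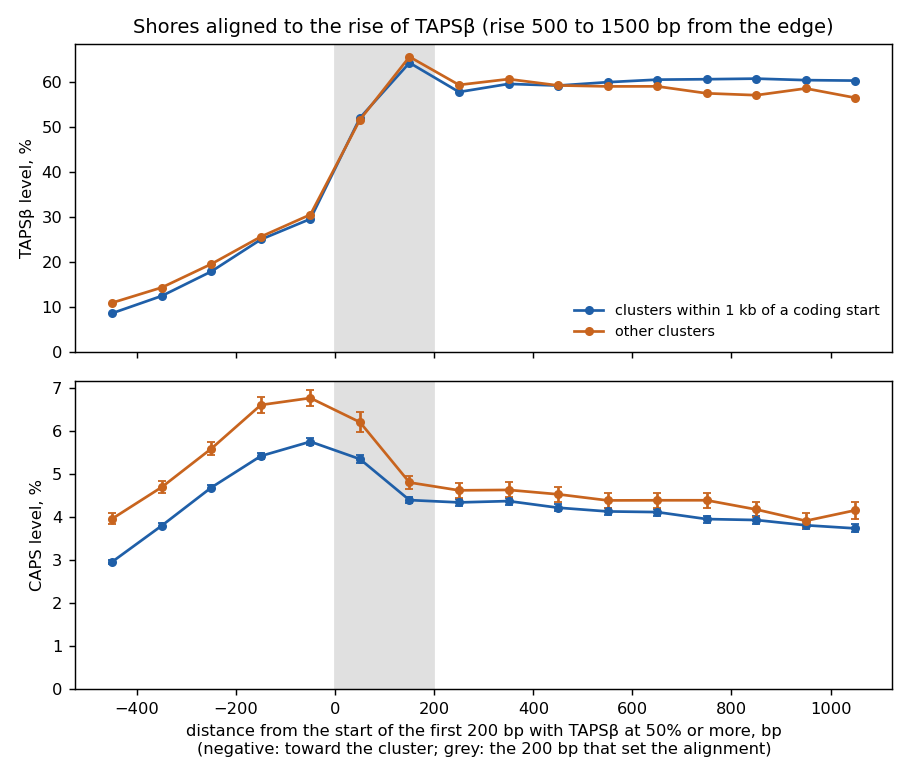
TAPSβ level (top) and CAPS level (bottom, with exact binomial 95% intervals) in 100-bp bins, in percent of reads, against the distance from the beginning of the rise (bp, negative toward the cluster), for start shores (blue) and other shores (orange) that rise 500 to 1500 bp from the edge. CAPS is highest in the last 100 bp before the grey 200 bp that set the alignment, at 5.75% and 6.76%.

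To compare shores with the rest of the genome at the same 5mC level, windows of 200 bp with at least 4 CpG cytosines and 20 reads in both libraries were sorted by their own TAPSβ level. A window was placed by its centre, so shore windows at a cluster edge can also hold cytosines from inside the cluster. In each kind of sequence CAPS was highest at intermediate TAPSβ levels and low at both ends (plot of CAPS at equal TAPSβ). The maximum of windows more than 4 kb from a cluster was 7.82% (7.80 to 7.84%) at TAPSβ levels of 20 to 30%. In shores it came at 30 to 40%, with 6.21% (6.15 to 6.26%) in start shores and 6.99% (6.91 to 7.06%) in other shores. At low TAPSβ, the CAPS level of shores was below that of distant windows of the same class, at 0.530 times (0.526 to 0.535) in start shores at 0 to 10% and 0.702 times in other shores, with no autosome above 1. These are ratios of uncorrected levels, from which the false-positive rate used for the calls (0.0072 of reads) was not subtracted, and the level of start shores in this class was only 1.65%. At 50 to 60% the order was reversed, with 1.10 times (1.09 to 1.11) in start shores and 1.20 times (1.19 to 1.21) in other shores, above 1 on 19 of 19 autosomes. Start shores were also above distant windows at 80 to 90% (1.18 times) and, on 12 of 19 autosomes, at 90 to 100% (1.15 times), whereas other shores fell to 0.908 times there and to 0.762 times at 90 to 100%. The classes were not matched exactly, since windows in the lowest one averaged 2.03% TAPSβ in start shores, 2.99% in other shores and 3.64% far away. CpGs per window also differed, with 5.96 in start shores and 4.17 in distant windows in the lowest class, so distant windows were sorted on fewer reads. The part of these TAPSβ differences, of CpG number, of cytosines from inside clusters and of sorting error in the ratios was not tested.

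**Figure D4:**
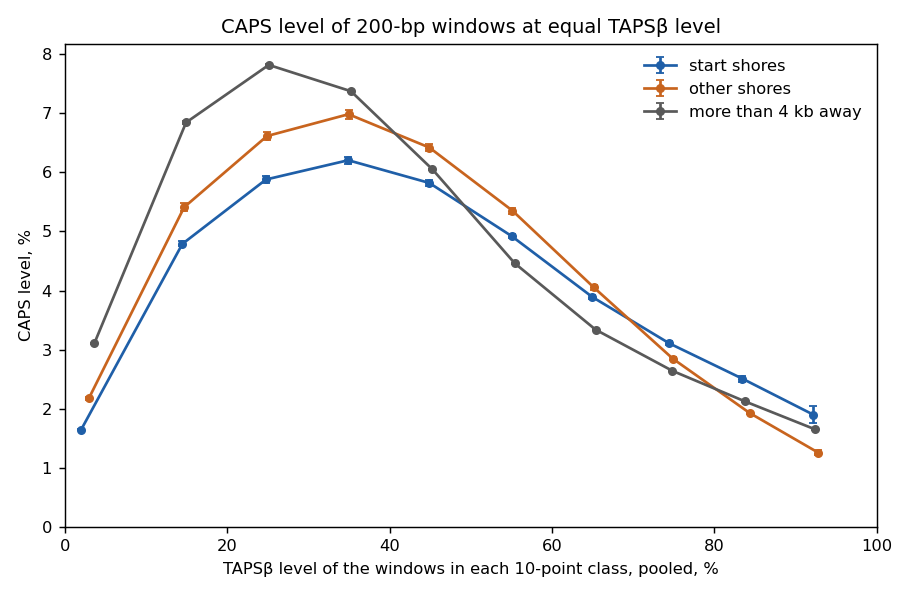
CAPS level (percent of reads, with exact binomial 95% intervals) of 200-bp windows against their pooled TAPSβ level in classes of 10 points, for start shores (blue), other shores (orange) and windows more than 4 kb from a cluster (grey). Windows were placed by their centre, so those at an edge can hold cytosines from inside a cluster. The shore curves lie below the grey curve up to TAPSβ levels of 40% and above it at 50 to 80%.

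The PS library, made to read 5fC and 5caC, had levels under 0.5% in each 100-bp bin of the autosomal shores pooled by kind. No background rate was subtracted and the part of false conversion in levels this low was not tested, so the profile is a PS signal and not a measure of 5fC and 5caC. The PS level of start clusters was 0.275% inside and 0.276% at 100 to 200 bp outside, and fell to 0.217% in the CAPS peak bin and 0.196% in the outermost bin. Around other clusters it fell from 0.476% in the first bin to 0.265% in the outermost. Part of the PS signal came from variant-like cytosines, modified in at least 20% of no fewer than 5 PS reads, as a C-to-T difference from the reference would give. Without them the fall was from 0.254% to 0.176% for start clusters and from 0.307% to 0.190% for other clusters, interior to outermost bin. The level at 0 to 500 bp was then above that at 1500 to 2000 bp on 19 of 19 autosomes for both kinds, with median ratios of 1.35 and 1.30.

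Genes of 5 lists with a cluster at their coding start were read with both shores pooled. Over 13714 start clusters with at least 200 CAPS and TAPSβ reads the median CAPS level was 3.41%. The list medians were 3.69% for 9 genes of the 5mC machinery, 2.75% for 8 pluripotency genes, 2.67% for 13 lineage regulators, 2.16% for 12 housekeeping genes and 1.84% for 7 imprinted genes. In housekeeping genes 8 of 1336 tested cytosines were called (0.599%), against 30 of 1225 in the 5mC machinery (2.45%) and 2.03% over the start clusters. The share was 1.90% in pluripotency genes, 1.55% in lineage regulators and 0.849% in imprinted genes. Of the 58 genes listed, Pou5f1, Nanog, Zfp42, Dnmt3l, Mbd4, Smug1 and Snrpn had no cluster within 1 kb of a coding start, and for Tfcp2l1 and Sox1 no autosomal coding start was found under that symbol.

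The shores of Tet1, which encodes a dioxygenase that makes 5hmC, had the highest CAPS level of the lists, 88 of 1202 reads or 7.32% (5.91 to 8.94%), with TAPSβ at 43.7% in the shores and 38.4% inside the cluster. Neil1, a DNA glycosylase gene, followed in its list with 4.77% (3.69 to 6.05%). Its cluster was unmethylated at 0.135% in TAPSβ, TAPSβ rose 800 bp out on both sides, and CAPS went from 1.48% within 500 bp to 7.24% at 1000 to 2000 bp. The lowest of the list were Dnmt1, the maintenance methyltransferase gene, with 2.49% (1.67 to 3.55%), and Tet2, another dioxygenase gene, with 2.45% (1.48 to 3.80%) and a TAPSβ level of 6.08%. The intervals of Tet1 and Tet2 do not overlap, and those of Dnmt1 and Tet2 do.

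Among pluripotency genes, Sall4, a zinc-finger factor gene with 4 clusters, had 4.26% (3.63 to 4.96%) and 17 called cytosines of 377 tested, and Klf4 had 3.32% (2.45 to 4.39%). Over the start clusters 2.03% of tested cytosines were called, and Sall4 is named here for its high CAPS level. Lin28a, whose product binds the let-7 precursor, had 1.58% (1.06 to 2.27%), and Sox2 had 0.797% (0.465 to 1.27%). Their shores stood at 0.861% and 4.15% in TAPSβ. The CAPS interval of Sox2 includes the false-positive rate used for the calls (0.0072 of reads).

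Lineage regulators, which drive later cell fates, had CAPS levels from 0.765% to 5.97%. Hand1, a heart and trophoblast factor, had 5.97% (4.68 to 7.50%) with a cluster interior already at 6.25%, and T (Brachyury), the mesoderm factor, had 5.00% (4.11 to 6.03%). Foxa2, an endoderm factor, had 1.63% (0.953 to 2.60%), and Nkx2-2, a neural factor, 3 of 392 reads or 0.765% (0.158 to 2.22%). The interval of Nkx2-2 includes the false-positive rate used for the calls (0.0072 of reads). Housekeeping genes ranged from 1.28% to 3.80%. Polr2a, for the largest subunit of RNA polymerase II, had 3.80% (2.70 to 5.17%) and Ppia, a cyclophilin gene, 2.65% (1.82 to 3.73%), whereas Tubb5, a tubulin gene, had 1.39% (0.839 to 2.16%) and Hspa8, a chaperone gene, 1.28% (0.785 to 1.97%) at a TAPSβ level of 0.544%.

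Imprinted genes, which carry methylation on a single parental copy, had the most methylated shores of the lists, with a median TAPSβ level of 45.5%. Plagl1 and Peg3, which are expressed from the paternal copy, had the lowest CAPS levels of the list, 1.11% (0.659 to 1.75%) and 1.21% (0.794 to 1.77%), with TAPSβ at 85.7% and 25.5%. The interior of the Plagl1 cluster stood at 54.1% in TAPSβ and that of Nnat at 43.7%. The others were lower, at 11.1% for Mest, 9.67% for Peg10, 6.15% for Peg3, 2.29% for Grb10 and 1.52% for Igf2r. Most of the clusters read for this list were thus little methylated inside. Grb10, an adaptor of insulin signalling, had 4.33% (3.56 to 5.22%) at a TAPSβ level of 45.5%, and Igf2r, the receptor that clears IGF2, 3.62% (2.52 to 5.03%) at 68.6%. The intervals of Grb10 and Plagl1 do not overlap, and that of Plagl1 includes the false-positive rate used for the calls (0.0072 of reads).

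**Figure D5:**
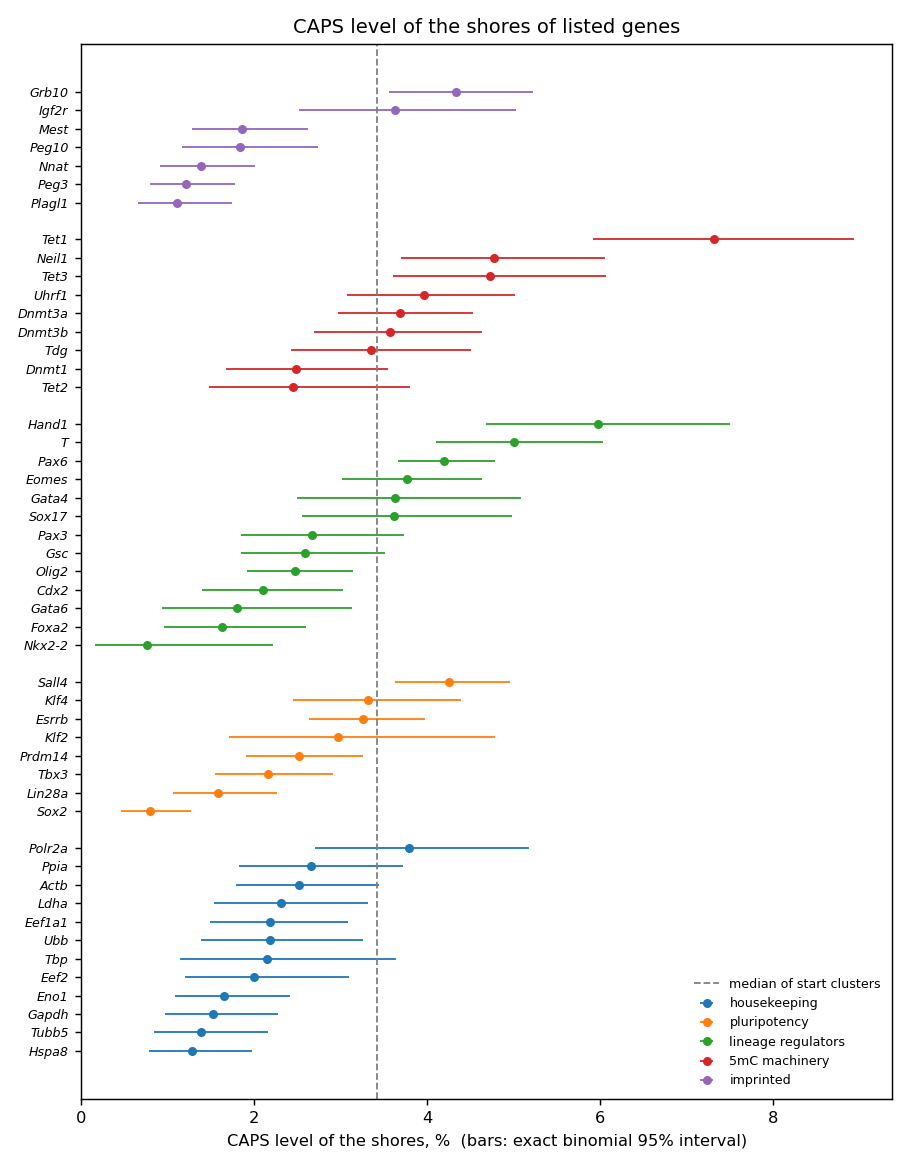
CAPS level (percent of reads, both shores pooled) of the shores of each listed gene with a cluster at its coding start, with exact binomial 95% intervals; colours mark the lists and the dashed line is the median of start clusters, 3.41%. Tet1 stands highest at 7.32%, and all housekeeping genes except Polr2a lie to the left of the line.

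The single shores with the highest CAPS level were chosen by that level among shores with at least 200 CAPS reads, 20 cytosines, a PS level under 1% and a CAPS depth of at most 2 times the median, so their values are a description. Of 22319 start shores that met these limits, the Fam159a shore led with 46 of 334 reads or 13.8% (10.3 to 17.9%), with TAPSβ at 23.5%, no rise within 2 kb and 5 of 30 cytosines called. Over all start shores 2.02% of tested cytosines were called. The 1700001O22Rik shore had 13.4% (10.03 to 17.3%) at a TAPSβ level of 33.9%. Slc46a2, a solute carrier gene, had 12.3%, Ndrg4 12.1% and Ptgir, the prostacyclin receptor gene, 11.8%. Of 15251 other shores, the one overlapping Cdkn1a led with 36 of 220 reads or 16.4% (11.7 to 21.9%) at a TAPSβ level of 63.0%. The next were shores on chromosome 2 with 14.6% (11.3 to 18.4%) and 14.4% (11.2 to 18.1%) and no annotated gene, then shores overlapping Stox1 with 14.1% and Gm11190 with 13.8%. TAPSβ in these 10 shores ranged from 23.5% to 63.0%, their PS levels were at most 0.503%, and their intervals overlap within each kind, so the order within a kind is not resolved.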

How the data were processed

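Genomic DNA of E14 mouse embryonic stem cells was sequenced once each by TAPSβ, CAPS and PS. Per the labels and the methods of the study, reads were trimmed with Trim Galore 0.3.1 and aligned to mm9 with BWA 0.7.12, and duplicates were removed with Picard 2.3.0. The authors deposited, for each CpG cytosine and strand, the counts of modified and unmodified reads and their ratio as a fraction. The ratio was recomputed from the counts. All listed positions fall on CpG cytosines of the mm9 sequence. Libraries were not scaled, since levels are shares of reads. Clusters, shores and the gene lists were chosen with earlier results of these data known. Levels were pooled over reads with at least 1 read per cytosine, in 100-bp bins from the nearest cluster edge. Genes named are the 2 with the highest and the 2 with the lowest CAPS level of each list, and the 5 single shores of each kind with the highest CAPS level under the limits given. The calls use a binomial test of the kind the study describes, but the set of cytosines adjusted over there may differ, and the count depends on it. In addition, the lists of artefact-prone regions and E14 variants that the study excluded were not used here. Windows printed as sequence are, in the 2 leading shores of each kind, the 200 bp with the most called cytosines. Python 3.11.15 with numpy 2.4.6, scipy 1.17.1 and matplotlib 3.10.9 was used, and the code was tested on simulated clusters and calls. Alternatives were coverage minimum, variant-like or high-coverage cytosines left out, averaging, cluster size, isolation, distance to the coding start, bin width and summed strands. Clusters on the Y chromosome were not analysed, but its cytosines are among those tested for calls on all chromosomes.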

Additional observations from a re-analysis of the deposited data

Results flagged for a closer look

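The X chromosome lies outside the autosomal comparisons and carried CAPS signal in its shores. It held 462 clusters within 1 kb of a coding start, whose shores had a CAPS level of 3.25% (3.16 to 3.33%) and the highest level, 4.14%, at 1200 to 1400 bp from the edge. The shores of 848 other clusters had a CAPS level of 2.78% (2.71 to 2.85%) and the highest level, 3.28%, at 400 to 600 bp. These highest levels are in 200-bp bins, whereas the pooled autosomal peaks are in 100-bp bins. No interval was computed for them, so the peak positions on the X chromosome are not resolved. CAPS depth there was 4.86 and 4.01 reads per cytosine, TAPSβ stood at 26.0% and 57.0% and PS at 0.294% and 0.527%. The values come from 1 library each and were set against no control sample.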

How the results depend on the processing

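Under each of the 10 alternatives CAPS peaked at 700 to 1000 bp in start shores. In other shores it peaked at 300 to 600 bp except with the mean of shore levels, which put the peak at 250 bp. The peak level of start shores was 4.39% with the mean of cytosine levels, 4.42% with the mean of shore levels, 4.02% with clusters of at least 40 CpGs and 4.21% in 200-bp bins. That of other shores was 4.07% without variant-like cytosines, 4.28% with either mean and 4.13% with clusters of at least 40 CpGs. The TAPSβ midpoint of start shores was 564, 524, 666, 581 and 599 bp with the mean of cytosine levels, the mean of shore levels, at least 40 CpGs, no other cluster within 4 kb and 200-bp bins. For other shores these were 270, 274, 407, 237 and 292 bp, with 283 bp at 5 or more reads and 301 bp for a coding start within 0.5 kb. The share called in shores was 2.49% at 10 or more reads, 6.83% against a rate of 0.0038 and 6.86% when adjusted over cytosines with a modified read, beside 1.964%, 5.49% and 5.51% of all cytosines, or 1.27, 1.25 and 1.25 times. With the mean of shore levels the CAPS peak of other shores (250 bp) lay inside the TAPSβ midpoint (274 bp), so the order of these positions turned. The alternatives were run for peak position, peak level, midpoint and called share, and the cause of the shifts was not tested. No paired analysis was possible because each method had 1 library. Depth of about 9 reads per cytosine in CAPS limits calls at single cytosines, and the intervals of single shores are several points wide.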

Other observations

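Within the shores, CAPS varied with position in coding genes, and the order was not the same for both kinds of cluster. In other shores cytosines in exons of coding transcripts had a CAPS level of 4.67% (4.64 to 4.71%), those in introns 4.04% (4.02 to 4.06%) and those outside coding genes 3.27% (3.25 to 3.28%). TAPSβ stood at 42.8%, 49.5% and 49.8% and PS at 0.201%, 0.253% and 0.428%, so exons had the highest CAPS and the lowest TAPSβ and PS levels. These PS values include variant-like cytosines, without which PS over all other shores was 0.226% in place of 0.337%. Their part in the PS order was not tested. The order of CAPS was the same at 0 to 500 bp, 500 to 1000 bp and 1000 to 2000 bp from the edge, with 5.00%, 4.78% and 4.27% in exons. In start shores exons and introns were alike, at 3.45% (3.42 to 3.47%) and 3.44% (3.43 to 3.46%), and sequence outside coding genes was higher at 3.71% (3.69 to 3.73%). Their TAPSβ levels were 25.8%, 28.1% and 32.9%. This order changed with distance: outside coding genes was highest at 0 to 500 bp (3.10%, against 2.57% in exons) but lowest at 1000 to 2000 bp, with 4.17% in exons, 4.03% in introns and 3.89% outside. Differences between the kinds of cluster were not tested.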
